A study of Mus musculus with 13 samples.

Results

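Chromatin accessibility was described at genes of glycolysis, of the hypoxia-inducible factor (HIF) pathway and of the mTOR pathway in microglia, the resident macrophages of the brain, after LPS. The genes were chosen by name, as metabolic genes tied to trained immunity, and 42 were named. A gene counted as present where the deposited peak table held at least 1 peak whose nearest start site was that gene's and lay within 50000 bp. This held for 37 of the 42 genes, against 13874 genes with an entry in the whole table, and for 122 of its 38620 peaks. Pfkm, Aldoc, Eno2, Tsc2 and Rps6kb1 had no such peak and are not described further. The counts of a gene's peaks were summed into a locus value. All 37 loci and 121 of the 122 peaks passed the filter on low counts, and 8 loci rested on 1 peak.

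Glycolysis breaks glucose down to pyruvate in the cytosol: glucose enters through transporters such as Slc2a1 (GLUT1), hexokinases trap it, and phosphofructokinase sets the pace of the steps that follow. HIF is a transcription factor whose alpha subunit is marked for destruction by the prolyl hydroxylases of the Egln family and by Vhl while oxygen is plentiful, and its targets include glycolytic genes. The mTOR kinase, in complexes with Rptor or Rictor, couples nutrient and growth signals to protein synthesis, in part through the translation inhibitor Eif4ebp1, and macrophages exposed to LPS are known for a shift towards glycolysis.

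The assay was ATAC-seq, in which a transposase inserts adapters into open chromatin. All animals were male C57BL/6J mice, injected intraperitoneally at 10 weeks of age and again 5 weeks later, and sampled at 15 weeks, 3 hours after the last injection. Group names give the order of treatments, with L for LPS at 1 mg/kg, P for the PBS sham and B for the CSF1R inhibitor BLZ945, which removes microglia so that the brain is repopulated. BLZ945 was given by gavage at 169 mg/kg per day for 5 days, starting a week after the first injection, and groups without B received its cyclodextrin vehicle. LBL and LL therefore met LPS at both injections, PBL and PL only at the last, and PBP and PP never. PBL had 3 libraries and LBL, PBP, LL, PL and PP had 2 each. A library pooled 40000 sorted cells (CD11b high, CD45 intermediate, Ly6c negative) from each of 2 animals, so p-values measure the spread between pools. The names of PBL 3_4 and PBL 4_5 both hold the number 4, so that 1 animal may have entered both pools.

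The libraries held 927840 to 2772688 rounded counts in peaks, with the fewest in PP. Set against counting noise, the PL pools differed with a chi-square of 1.84 for each degree of freedom, while pairs in other groups gave 0.978 to 1.15. Of the PL pools, PL 3_4 stood apart: 53.2% of its counts lay in promoter peaks, against 55.5% to 60.1% in the other 12 libraries, and its summed endothelial markers were the highest (470 CPM). The LBL pools (0.978) and the PP pools (1.01) differed by no more than counting noise, if each rounded count is taken as a read. The deposited values are estimated counts that include fractions, so the unit of this noise is not known. Whether these pools differed by more than their true noise was not tested. LBL values are also given with the pair averaged as 1 library. PBP, PL and PP were sorted on one instrument and LBL, PBL and LL on another, so LL vs PP, LBL vs PBP, PBL vs PBP, LL vs PL and PBL vs PL cannot be told apart from the sorter. PL pools came from separate days, 1 shared with PBP and 1 with PP, and each other group came from 1 day. LBL vs PBL, LBL vs LL and, in the main fit without a day term, PBP vs PP cannot be told apart from the day. Each difference between responses tested below holds a step that crosses the sorters. Of 12 microglial marker genes, 11 had peaks, with a summed level of 1510 to 2030 CPM (counts scaled to a common library size) over all libraries. Some markers of other cells had no peak, among them S100a8 and Ly6g of neutrophils, Cd3e of lymphocytes, and Pf4 and Lyve1 of border macrophages. Other markers of such cells had peaks. Sums were 163 to 274 CPM over 6 of 9 border-macrophage markers and 138 to 209 CPM over 4 of 7 monocyte markers. For oligodendrocytes (5 of 6 markers) they were 392 to 469 CPM, and for astrocytes (2 of 6) 246 to 330 CPM. For neutrophils (2 of 9) they were 19.2 to 37.8 CPM, and for lymphocytes (2 of 7) 14.2 to 35.1 CPM. Neuron sums (2 of 6) were 35.9 and 36.3 CPM in PL against 62.7 and 62 CPM in PP. They were 33.5 to 41.3 CPM in PBL, against 44.4 and 50.8 CPM in PBP, and 30.7 to 40.5 CPM in LL and LBL. The neuron marker Rbfox3 was called lower in PL vs PP (1.95-fold, adjusted p = 0.038 in edgeR's test). F13a1 was the 1 border-macrophage marker of 6 called after a first LPS, higher in both comparisons. In LBL vs PBP, F13a1, Cd163, the monocyte marker Plac8 and the endothelial marker Flt1 were higher, and the lymphocyte marker Cd4 was lower. Of the 11 microglial markers, 3 were lower and 1 was higher in PL vs PP, and 7 were lower in PBL vs PBP. The part of these markers in the results was not tested.

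A first LPS injection was followed by wider opening at a small set of these loci. In PL vs PP, 5 of 37 loci were higher (Eif4ebp1, Slc2a1, Mtor, Hk2 and Pfkfb3; 6.54% of all 13734 loci tested were higher) and 2 were lower (Egln1 and Pfkl; 4.07% of all loci). In PBL vs PBP, the same step in repopulated microglia, 4 were higher (Eif4ebp1, Slc2a1, Rptor and Pfkfb3; 5.15% of all loci) and 1 was lower (Ldhb; 2.32% of all loci). Slc2a1, Eif4ebp1 and Pfkfb3 were higher in both. The shares of higher loci, 13.5% and 10.8%, stood above those of all loci, but they rest on 5 and 4 genes. The median log2 fold change of the 37 loci was 0.11 in PL vs PP, where that of all loci was -0.000952, and 0.0529 in PBL vs PBP, where that of all loci was 0.00342. Calls were made with edgeR's quasi-likelihood test at an adjusted p under 0.05, and in every locus called here the libraries of the groups did not overlap. In such bulk samples, fewer open cells and less opening per cell cannot be told apart. The PL vs PP calls rest on single pools: 2 remained without PL 3_4 and 2 without PP 1_2 (Eif4ebp1 and Slc2a1 each time), 4 without PP 3_4, and 11 were made without PL 1_2 or with the isolation day as a term. In PBL vs PBP, 2 were made without PBP 3_4 (Eif4ebp1 and Slc2a1) and 3 without PBL 3_4. The day term is set by the gap between the 2 PL pools alone. With it, PL vs PP sets PL 3_4 against PP, just as when PL 1_2 is left out, so these are not separate checks. DESeq2 called 5 loci in PL vs PP, all but Mtor and Pfkl, and 4 in PBL vs PBP, all but Rptor.

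**Figure D1:**
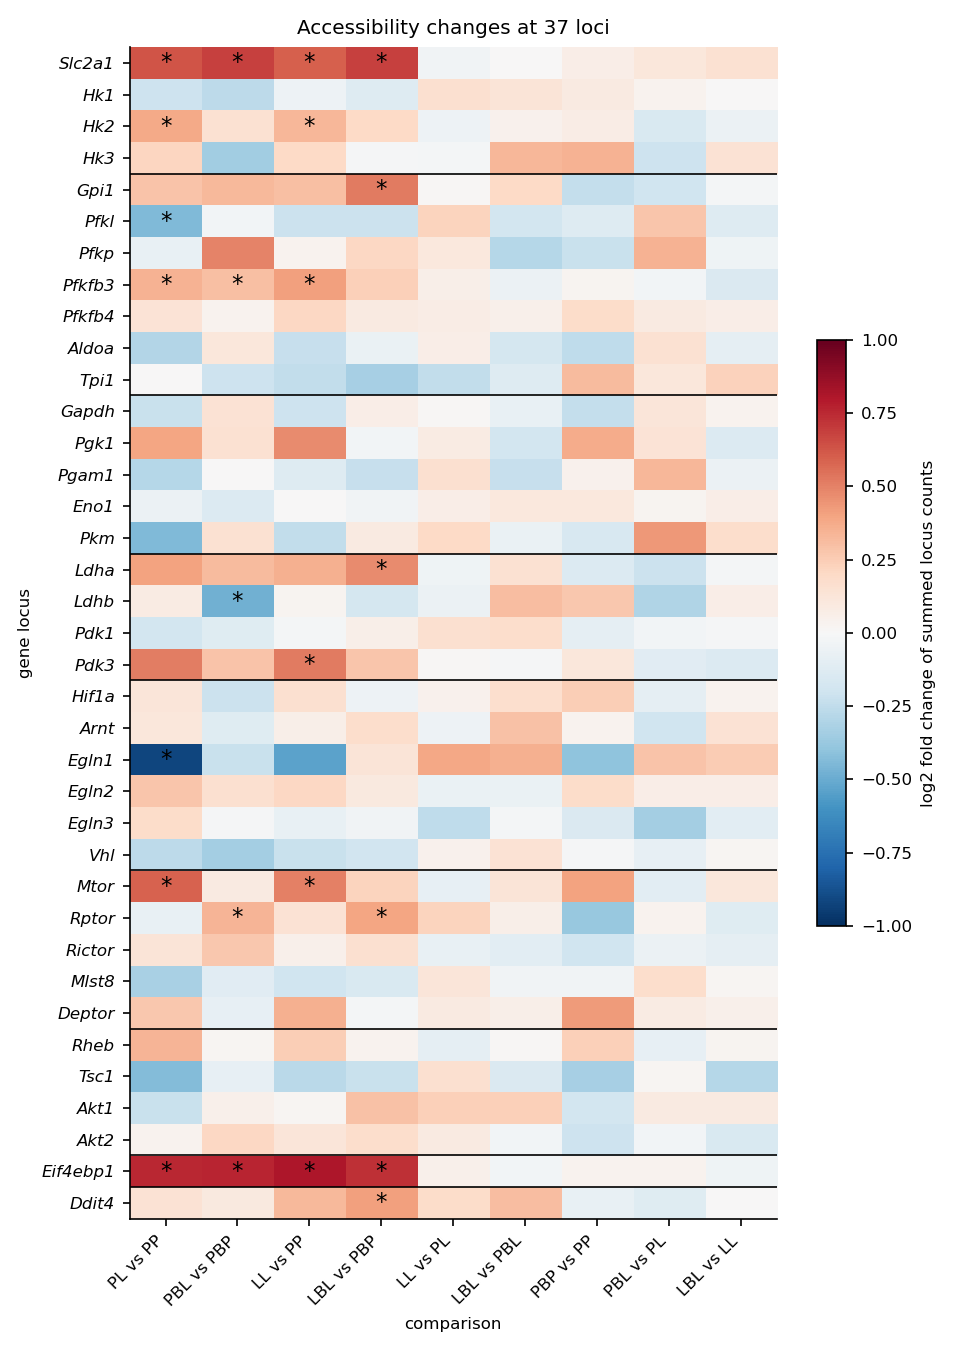
Log2 fold change of summed locus counts (colour, from -1 in blue to 1 in red) for the 37 loci (rows, in the order of their roles, separated by lines) in 9 comparisons (columns), with an asterisk on each called locus. Slc2a1 and Eif4ebp1 are marked in all 4 comparisons of LPS with PBS groups, and no locus is marked in the 5 other columns.

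Slc2a1, the glucose transporter, opened in every comparison of LPS with PBS. Its locus of 5 peaks on chromosome 4 held 180 and 213 CPM in the PL pools, against 120 and 135 CPM in the PP pools. In repopulated microglia it held 215, 217 and 210 CPM in PBL, against 124 and 143 CPM in PBP. Every LPS pool was above every PBS pool. The log2 fold change was 0.63 ± 0.12 (SE; 1.55-fold, adjusted p = 0.000181) in PL vs PP and 0.68 ± 0.10 (1.60-fold, adjusted p = 4.06e-07) in PBL vs PBP.

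The largest change at Slc2a1 was at an intronic peak (chr4:119125365-119126303, GRCm38, intron 2 of 9, 16451 bp from the nearest annotated start site). This peak held 48.6 and 65.0 CPM in PL against 21.0 and 21.0 CPM in PP, and 74.4, 66.2 and 62.3 CPM in PBL against 20.1 and 22.6 CPM in PBP. It was thus 2.71-fold higher in PL (adjusted p = 5.61e-06) and 3.13-fold higher in PBL (adjusted p = 1.03e-11). The promoter peak of the same gene (chr4:119108427-119109462) held 68.8 and 63.9 CPM in PL against 56.8 and 63.9 CPM in PP, and passed the test in neither comparison (log2 fold change 0.13 ± 0.18 and, in PBL vs PBP, 0.38 ± 0.15, adjusted p = 0.721 and 0.0759). Another peak, 2723 bp before the start, was 2.62-fold higher in PL vs PP (13.0 and 16.5 CPM in PL against 4.21 and 6.99 CPM in PP; adjusted p = 0.0314), a call lost without PL 3_4 or either PP pool. When only peaks within 10000 bp of a start site were summed, the locus log2 fold change was 0.29 in PL vs PP (adjusted p = 0.231) and 0.41 in PBL vs PBP (adjusted p = 0.0295), and with peaks within 1000 bp neither was called.

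Slc2a1 is also the glucose transporter of brain capillary endothelium, and endothelial markers moved with LPS as well. Of 8 such markers 5 had peaks and Tek, Tie1 and Slco1a4 had none. The sum over the 5 was 371 to 470 CPM in PL, against 279 to 339 CPM in PP, and 345 to 406 CPM in PBL, against 297 to 305 CPM in PBP. Flt1 and Kdr were called higher in PL vs PP, and Flt1 and Cldn5 in PBL vs PBP. The sum was 374 to 388 CPM in LL and 381 to 386 CPM in LBL. In LL vs PP 0 of the 5 were called, and in LBL vs PBP Flt1 was higher. Cldn5 was 2.19-fold lower in LBL vs PBL (adjusted p = 0.0064 in edgeR's test), where the Slc2a1 log2 fold change was 0.000662. The part of these markers in the Slc2a1 result was not tested.

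**Figure D2:**
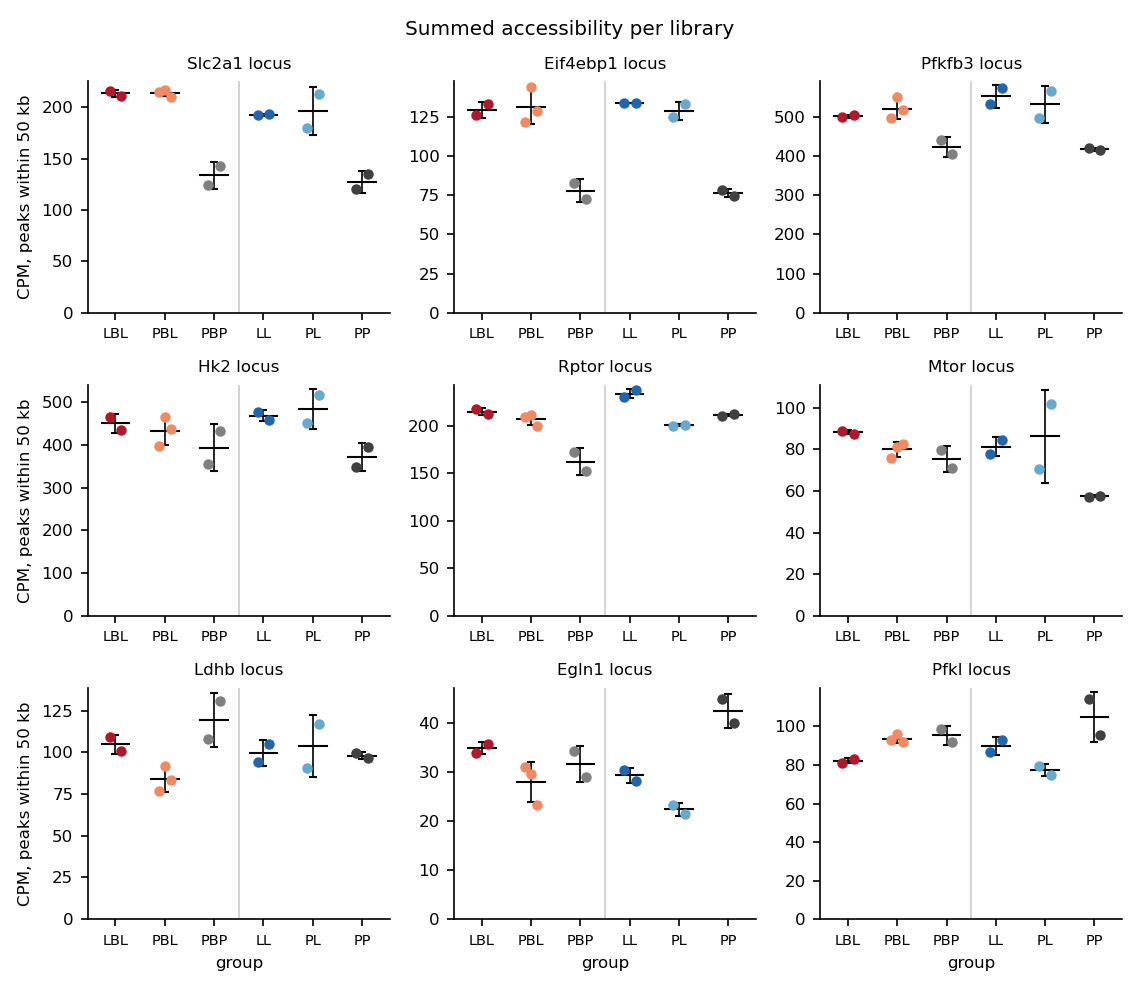
Summed CPM of the peaks within 50000 bp (y axis, from 0) at 9 loci in each library (points), by group (x axis), with the group mean (line) and SD (bar). In the Slc2a1 and Eif4ebp1 panels all LPS pools lie above all PBS pools, while in the Mtor panel the 2 PL pools lie at 70.5 and 102 CPM.

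Of the 3 hexokinases, the enzymes that phosphorylate glucose, Hk2 rose in PL vs PP. Its locus of 12 peaks held 450 and 517 CPM in PL, against 349 and 394 CPM in PP (log2 fold change 0.38 ± 0.10, 1.30-fold, adjusted p = 0.00649; not called without PL 3_4 or PP 1_2). With peaks within 10000 or 1000 bp it was not called either, with log2 fold changes of 0.27 and 0.05. In PBL vs PBP it held 398, 464 and 437 CPM, against 354 and 432 CPM; these pools overlapped and the locus was not called. A peak in intron 2 of 17 (chr6:82753014-82753488, 19500 bp from the nearest start site) passed in both. It held 17.8 and 27.7 CPM in PL against 8.41 and 7.98 CPM in PP (2.79-fold, adjusted p = 0.00418), and 29.5, 25.0 and 25.7 CPM in PBL against 8.54 and 9.05 CPM in PBP (2.99-fold, adjusted p = 1.05e-05). Each LPS pool was above each PBS pool at this peak, although the PL vs PP call was lost without PL 3_4 or without either PP pool.

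Further Hk2 peaks were called in 1 comparison each. In PL vs PP, a peak in an exon of another transcript, 8394 bp from the nearest start site, was 1.41-fold higher, and an intergenic peak 47365 bp upstream was 1.82-fold higher. In PBL vs PBP, 1 of the 2 promoter peaks, at chr6:82773237-82773826, was 1.57-fold higher, with 37.9, 45.3 and 41.4 CPM in PBL against 27.5 and 25.6 CPM in PBP (adjusted p = 0.0157). Each of these calls was lost without either pool of the PBS group, the first pair also without PL 3_4 and the last without PBL 3_4. Hk1, the widely expressed hexokinase, and Hk3, a myeloid hexokinase, were not called as loci. The Hk3 promoter peak (chr13:55021031-55021682) fell 1.72-fold in PBL vs PBP, to 19.7, 24.1 and 22.4 CPM in PBL against 36.6 and 40.7 CPM in PBP (adjusted p = 0.00346; lost without PBP 3_4). The same peak held 26.1 and 22.9 CPM in PL against 27.3 and 25.9 CPM in PP, so the PBP pools were the high ones. An intronic Hk1 peak fell 1.59-fold in PBL vs PBP, to 19.0, 13.9 and 19.4 CPM in PBL against 25.6 and 30.2 CPM in PBP (adjusted p = 0.0435; lost without PBL 3_4 or either PBP pool).

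Promoter windows are shown for 5 of these genes, to set promoters whose peak was called (Egln1, Mtor and Hk3) beside windows lying in a peak that was not called while other peaks of the locus were (Slc2a1 and Hk2, whose neighbouring promoter peak was called in PBL vs PBP). Sequences are from RefSeq on GRCm38.p6 and run 5′ to 3′ on the gene's strand, from 250 bases before to 50 bases after the start. Capitals mark the hypoxia response core ACGTG, to which HIF binds, or its complement CACGT, as both strands were searched. The windows lie at chr4:119108495-119108794 (plus strand) for Slc2a1, chr6:82774405-82774704 (minus) for Hk2, chr13:55021336-55021635 (minus) for Hk3, chr8:124949205-124949504 (minus) for Egln1 and chr4:148448332-148448631 (plus) for Mtor.
Slc2a1: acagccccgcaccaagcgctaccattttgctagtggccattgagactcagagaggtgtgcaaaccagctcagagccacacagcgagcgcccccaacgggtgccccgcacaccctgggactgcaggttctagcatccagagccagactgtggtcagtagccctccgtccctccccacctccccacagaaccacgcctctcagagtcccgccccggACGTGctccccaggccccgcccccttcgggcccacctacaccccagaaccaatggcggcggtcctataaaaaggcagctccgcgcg
Hk2: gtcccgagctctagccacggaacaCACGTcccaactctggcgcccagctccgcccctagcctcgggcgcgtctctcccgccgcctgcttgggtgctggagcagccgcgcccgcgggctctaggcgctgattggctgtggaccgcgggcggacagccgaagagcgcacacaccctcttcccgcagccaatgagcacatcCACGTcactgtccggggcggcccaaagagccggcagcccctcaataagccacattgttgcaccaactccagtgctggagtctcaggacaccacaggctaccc
Hk3: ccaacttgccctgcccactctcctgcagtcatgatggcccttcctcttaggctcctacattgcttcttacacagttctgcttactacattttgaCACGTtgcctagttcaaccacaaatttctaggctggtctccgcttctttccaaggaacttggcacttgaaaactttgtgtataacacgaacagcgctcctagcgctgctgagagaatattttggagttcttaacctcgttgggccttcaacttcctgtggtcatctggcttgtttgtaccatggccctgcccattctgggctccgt
Egln1: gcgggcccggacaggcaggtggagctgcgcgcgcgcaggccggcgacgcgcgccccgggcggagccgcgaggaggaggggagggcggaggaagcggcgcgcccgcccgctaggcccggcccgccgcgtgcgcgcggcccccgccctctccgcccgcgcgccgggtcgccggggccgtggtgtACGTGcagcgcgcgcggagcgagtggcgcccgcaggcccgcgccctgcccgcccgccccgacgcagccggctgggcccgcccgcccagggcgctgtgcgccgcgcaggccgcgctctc
Mtor: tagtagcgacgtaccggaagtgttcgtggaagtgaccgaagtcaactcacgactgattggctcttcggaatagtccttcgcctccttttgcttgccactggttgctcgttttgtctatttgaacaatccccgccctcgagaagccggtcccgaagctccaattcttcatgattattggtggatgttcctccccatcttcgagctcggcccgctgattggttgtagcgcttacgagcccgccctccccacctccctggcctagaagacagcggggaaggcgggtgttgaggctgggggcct

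The core occurred once in the Slc2a1, Hk3 and Egln1 windows, at 2 places in that of Hk2, and not in that of Mtor. The table held windows for 40 of the 42 genes, all but Eif4ebp1 and Deptor, and for 35 of the 37 with a peak. Of these 35 windows, 19 held the core (54.3%), against 19.6% of all 32851 windows. The 2 sets were not chosen alike. For each gene the window sharing most bases with its promoter peaks was taken, while the 32851 were unselected and need not lie in a peak. Among windows lying wholly inside a promoter peak the shares were 14 of 26 (53.8%) and 29.4% of 7934. The E-box CACGTG, which contains the core, occurred in 4 of 35 windows (11.4%, against 7.15% of all), and in 11.5% against 11.8% of the windows inside a promoter peak. TGANTCA of AP-1, GAGGAAGT of PU.1 and the kappa-B consensus occurred in none of the 35, against 7.81%, 3.2% and 4.51% of all windows and 3.77%, 3.62% and 5.36% of those inside a promoter peak. These are matches of letters, in printed windows mostly rich in G and C (65.3% at Slc2a1 and 86.0% at Egln1, but 49.0% at Hk3). The cores at Slc2a1 and Hk2 lie in promoter peaks that were not called. At Slc2a1 and Hk2 the most changed peaks lie outside the windows, whereas the Egln1, Mtor and Hk3 windows lie wholly or nearly so in a called peak.

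Among the upper steps of glycolysis, Pfkfb3, which makes the activator of phosphofructokinase, rose in both first-LPS comparisons. Its 14 peaks summed to 498 and 566 CPM in PL against 420 and 415 CPM in PP, and to 497, 550 and 517 CPM in PBL against 442 and 405 CPM in PBP. The log2 fold changes were small, 0.35 ± 0.09 (adjusted p = 0.00729) and 0.30 ± 0.08 (adjusted p = 0.00889), with no overlap between the pools. The calls were lost without PL 3_4, either PP pool, PBL 3_4 or PBP 3_4. Both were also lost with peaks within 10000 bp (log2 fold change 0.18 for PL vs PP, 0.09 for PBL vs PBP) and within 1000 bp (0.14 and 0.13).

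One Pfkfb3 peak changed far more than the locus. It lies at chr2:11530029-11530530, in the last exon of a short transcript inside Pfkfb3 (ENSMUST00000192087.1), 23392 bp from the nearest start. It held 29.6 and 37.3 CPM in PL against 8.41 and 8.98 CPM in PP, and 23.9, 41.6 and 40.3 CPM in PBL against 6.10 and 3.77 CPM in PBP. The peak was 3.84-fold higher in PL (adjusted p = 1.54e-05) and 7.17-fold higher in PBL (adjusted p = 5.78e-13), the largest fold changes among the 121 peaks in these comparisons. The difference between the responses was 0.90 ± 0.55 on the log2 scale (adjusted p = 0.548). Other intronic Pfkfb3 peaks were called higher in 1 comparison each, at 2.52-fold in PL vs PP and 1.94-fold in PBL vs PBP, while neither of the gene's 2 promoter peaks was called.

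**Figure D3:**
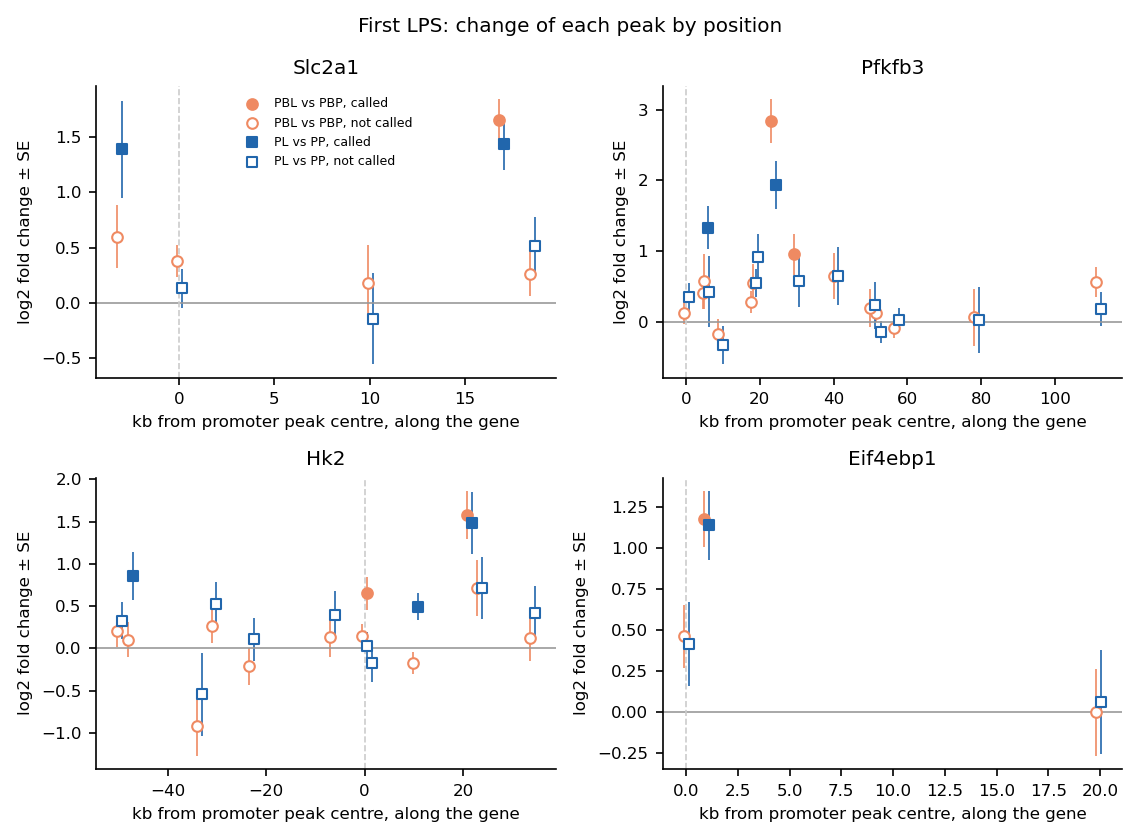
Log2 fold change ± SE (y axis) of each peak of Slc2a1, Pfkfb3, Hk2 and Eif4ebp1 against the distance of its centre from the centre of the gene's upstream promoter peak, in kb along the gene (x axis). Circles show PBL vs PBP and squares PL vs PP, filled where called. The highest points at Slc2a1 and Hk2 are the intronic peaks and at Pfkfb3 the exonic peak, all away from the dashed line at the promoter.

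Among the other upper enzymes, Pfkl, the liver-type phosphofructokinase, fell in PL vs PP to 79.4 and 75.0 CPM in PL, against 114 and 95.6 CPM in PP (log2 fold change -0.44 ± 0.15, 1.36-fold lower, adjusted p = 0.0405; lost without PL 3_4 or either PP pool, by DESeq2 and in both narrower windows). It held 93.0, 96.0 and 92.1 CPM in PBL against 98.8 and 91.9 CPM in PBP, which overlap. Gpi1, glucose-6-phosphate isomerase, was not called as a locus after a first LPS, but an intronic peak of it was 2.06-fold higher in PBL vs PBP (28.1, 23.1 and 24.9 CPM in PBL against 12.2 and 12.1 CPM in PBP; adjusted p = 0.00325; lost without either PBP pool). Pfkp, Pfkfb4, Aldoa and Tpi1 were not called in any comparison.

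None of the 5 loci of the lower steps of glycolysis (Gapdh, Pgk1, Pgam1, Eno1 and Pkm) was called in any comparison. Their log2 fold changes ran between -0.445 and 0.392 in PL vs PP and between -0.14 and 0.155 in PBL vs PBP. Pkm, pyruvate kinase, held 64.2 and 57.8 CPM in PL against 91.7 and 74.6 CPM in PP (adjusted p = 0.0699), and 82.7, 87.6 and 77.8 CPM in PBL against 72.9 and 75.8 CPM in PBP. The PL pools were below PP and the PBL pools above PBP, but the difference between the responses did not pass (0.60 ± 0.21, adjusted p = 0.166). An intergenic peak 9121 bp before Eno1, the enolase gene, fell 2.02-fold in PBL vs PBP (9.83, 7.40 and 5.87 CPM in PBL against 13.4 and 16.6 CPM in PBP; adjusted p = 0.0176; lost without PBL 4_5 or either PBP pool).

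At the fate of pyruvate, 1 of the 2 lactate dehydrogenase loci changed in repopulated microglia. Ldhb, whose subunit is the one of oxidative tissues, fell in PBL vs PBP to 76.7, 91.6 and 83.6 CPM in PBL, against 108 and 131 CPM in PBP (log2 fold change -0.48 ± 0.12, 1.40-fold lower, adjusted p = 0.004; lost without PBP 3_4 and with peaks within 1000 bp, where it was -0.29). An intronic peak 2765 bp from a start site kept its call without any 1 pool, with 22.5, 23.1 and 19.8 CPM in PBL against 37.2 and 48.3 CPM in PBP (1.96-fold lower, adjusted p = 0.000142). PL and PP overlapped at the Ldhb peak, with 29.0 and 29.8 CPM in PL against 33.7 and 25.9 CPM in PP. The difference between the responses at the locus was -0.57 ± 0.19 (adjusted p = 0.152). Ldha, whose subunit favours lactate, held 77.5, 81.7 and 72.4 CPM in PBL against 65.9 and 56.4 CPM in PBP (log2 fold change 0.32, adjusted p = 0.166), and 89.4 and 89.3 CPM in PL against 60.4 and 74.6 CPM in PP (adjusted p = 0.0959). Pdk3, a kinase that turns pyruvate dehydrogenase off, held 71.8 and 70.3 CPM in PL against 50.3 and 49.4 CPM in PP, and just missed the call (adjusted p = 0.0521).

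**Figure D4:**
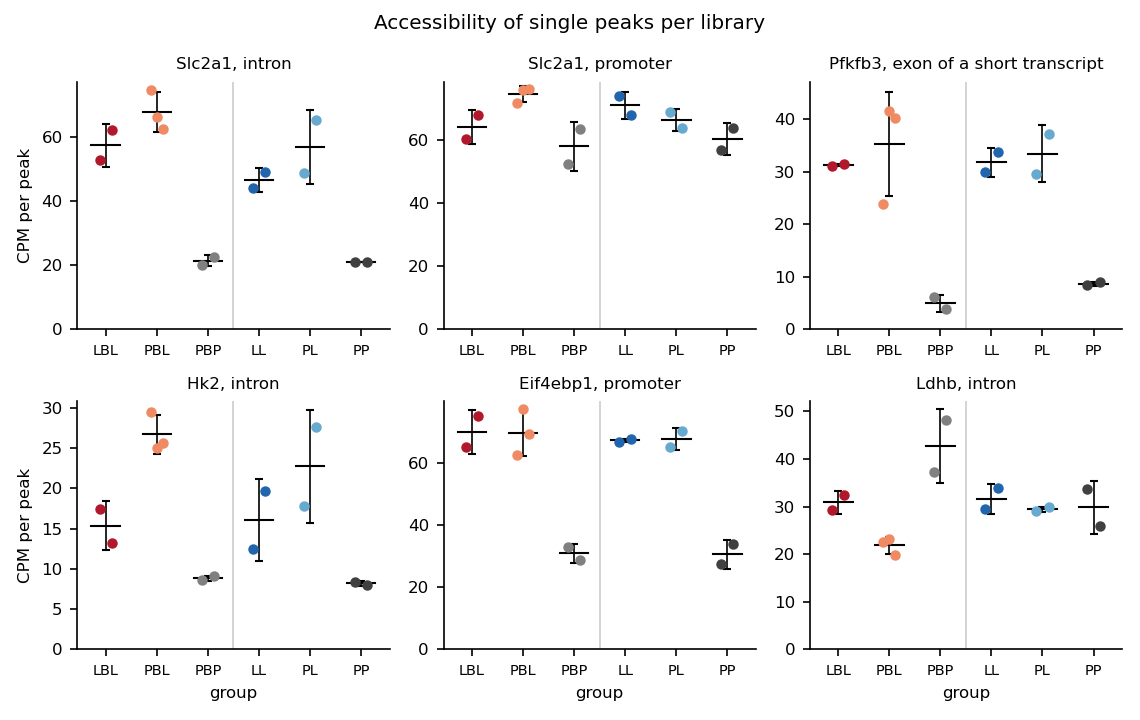
CPM of 6 single peaks (y axis, from 0) in each library (points), by group (x axis), with the group mean (line) and SD (bar). The intronic Slc2a1 and the exonic Pfkfb3 peak are low in PBP and PP, while the Slc2a1 promoter peak lies between 52.5 and 76.3 CPM in all libraries.

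In the HIF pathway 1 of 6 loci was called after a first LPS. Egln1, the main oxygen-sensing prolyl hydroxylase, fell in PL vs PP to 23.3 and 21.4 CPM in PL, against 44.8 and 39.9 CPM in PP (log2 fold change -0.92 ± 0.24, 1.89-fold lower, adjusted p = 0.00709). Its promoter peak (chr8:124949216-124949879), which covers 289 of the 300 bases printed above, held 16.6 and 11.7 CPM in PL against 37.9 and 26.9 CPM in PP (2.29-fold lower, adjusted p = 0.00271). The calls were lost without PL 3_4 or without PP 1_2. In repopulated microglia the locus held 31.0, 29.5 and 23.2 CPM in PBL against 34.2 and 29.0 CPM in PBP, which overlap. The difference between the responses was 0.69 ± 0.31 (adjusted p = 0.29).

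Hif1a, the regulated alpha subunit, held 137 and 148 CPM in PL against 132 and 130 CPM in PP, and 126, 134 and 139 CPM in PBL against 151 and 160 CPM in PBP. Neither comparison passed (adjusted p = 0.215 in PBL vs PBP), and the PBP pools were the highest of these 4 groups. Arnt, its partner subunit, Egln2 and Egln3, the other hydroxylases, and Vhl, the ligase subunit that marks the alpha subunit, were not called in any comparison.

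Eif4ebp1, the translation inhibitor that mTOR phosphorylates, gave the largest locus rise in both first-LPS comparisons. Its 3 peaks on chromosome 8 summed to 125 and 133 CPM in PL against 78.3 and 74.6 CPM in PP, and to 122, 144 and 129 CPM in PBL against 83.0 and 72.6 CPM in PBP. Every LPS pool was above every PBS pool. The log2 fold change was 0.76 ± 0.14 (1.69-fold, adjusted p = 0.000162) in PL vs PP and 0.76 ± 0.12 (1.69-fold, adjusted p = 1.8e-06) in PBL vs PBP, and the difference between them was 0.00182 with a 95% interval of -0.376 to 0.38.

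The peak behind it lies 680 bp after the start and is annotated as promoter (chr8:27261009-27261483). It held 65.2 and 70.3 CPM in PL against 27.3 and 33.9 CPM in PP, and 62.5, 77.3 and 69.3 CPM in PBL against 33.0 and 28.7 CPM in PBP. It was 2.21-fold higher in PL (adjusted p = 4.37e-05) and 2.26-fold higher in PBL (adjusted p = 3.01e-08). The promoter peak that covers the start itself was not called. The Eif4ebp1 locus was called in all alternatives run, including sums limited to peaks within 1 kb.

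Among the subunits of the mTOR complexes, Mtor, the kinase, rose in PL vs PP. Its single peak held 70.5 and 102 CPM in PL against 57.1 and 57.8 CPM in PP (locus log2 fold change 0.59 ± 0.17, 1.51-fold, adjusted p = 0.0175). The PL pools lay far apart, and the call was lost without PL 3_4, without either PP pool and by DESeq2 (adjusted p = 0.0988). PBL held 76.0, 81.2 and 82.8 CPM against 79.8 and 70.9 CPM in PBP, which overlap. Scaled and tested among all peaks instead of all loci, the same peak was 1.46-fold higher in PL vs PP (adjusted p = 0.038).

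Rptor, the scaffold of the first complex, rose in PBL vs PBP, to 209, 211 and 200 CPM in PBL against 172 and 152 CPM in PBP (log2 fold change 0.34 ± 0.09, 1.27-fold, adjusted p = 0.0113; lost without PBL 3_4 or PBP 3_4 and by DESeq2). With peaks within 10000 and 1000 bp its log2 fold changes were 0.26 and 0.04, neither called. PL held 200 and 201 CPM against 210 and 212 CPM in PP, so PBP was the low group; PBP vs PP itself did not pass (log2 fold change -0.376 ± 0.113, adjusted p = 0.125). Of its 10 peaks, 3 intronic ones were called higher in PBL vs PBP, at 2.74-, 1.98- and 1.46-fold. The last, 5706 bp from a start, was also 1.71-fold higher in PL vs PP, with 56.9 and 55.4 CPM in PL against 29.5 and 35.9 CPM in PP (adjusted p = 0.0122), a call lost without PL 3_4 or either PP pool. All 3 calls in PBL vs PBP were lost without PBP 3_4, and DESeq2 made none of these Rptor calls. Rictor, Mlst8 and Deptor were not called in any comparison.

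Upstream of mTOR no locus was called after a first LPS. An intronic peak nearest to Rheb, the GTPase that switches mTOR on, was higher in both comparisons: 29.6 and 37.3 CPM in PL against 10.5 and 22.0 CPM in PP (2.05-fold, adjusted p = 0.0128), and 23.9, 29.6 and 24.9 CPM in PBL against 16.5 and 15.1 CPM in PBP (1.66-fold, adjusted p = 0.0414). The first call was lost without PL 3_4 or PP 1_2, and the second without any pool but PBL 1_2. Akt1 and Akt2, kinases that relay growth signals, and Tsc1, part of the brake on Rheb, were not called in any comparison.

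Counted over single peaks, 11 of 121 were higher (4.77% of all 37516 peaks tested) and 1 was lower (2.69% of all peaks) in PL vs PP. In PBL vs PBP 11 were higher (6.74% of all peaks) and 4 were lower (3.23% of all peaks). Of the 50 promoter peaks, 3 were called in PL vs PP (6.89% of all promoter peaks) and 3 in PBL vs PBP (4.49%). Of the 71 peaks outside promoters, 9 were called in PL vs PP (7.79% of all such peaks) and 12 in PBL vs PBP (13.1%). As shares of these genes' peaks, 6% of the promoter peaks were called in each comparison, and 12.7% and 16.9% of the others. In PL vs PP, 3 peaks remained without PL 3_4 and 3 without PP 1_2 (Slc2a1 intron, Pfkfb3 exon and Eif4ebp1 each time), 6 without PP 3_4 and 22 without PL 1_2. In PBL vs PBP, 6 were called without PBP 3_4 and 7 without PBP 1_2. DESeq2 called 5 peaks in each comparison, the Slc2a1 intron, Pfkfb3 exon and Eif4ebp1 peaks in both, the Egln1 promoter and an intronic Pfkfb3 peak in PL vs PP, and the Hk2 and Ldhb intron peaks in PBL vs PBP.

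After a second LPS the loci were compared with PBS groups first. In LL vs PP 6 loci were higher (5.81% of all loci) and 0 were lower (2.92%); in LBL vs PBP 6 were higher (3.71%) and 0 were lower (0.575%). Slc2a1 held 192 and 193 CPM in LL and 216 and 211 CPM in LBL, and Eif4ebp1 134 and 134 CPM in LL and 126 and 133 CPM in LBL, all above the PBP and PP values given above. Their log2 fold changes were 0.60 ± 0.12 and 0.81 ± 0.14 in LL vs PP, and 0.68 ± 0.11 and 0.73 ± 0.13 in LBL vs PBP. Slc2a1 and Eif4ebp1 were the loci called in both comparisons.

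Against the PP values given above, LL vs PP also called Pfkfb3 (532 and 573 CPM in LL; 1.33-fold), Hk2 (477 and 459 CPM; 1.26-fold), Mtor (78.0 and 84.6 CPM; 1.42-fold) and Pdk3 (71.5 and 71.4 CPM; 1.43-fold, adjusted p = 0.0456). Without LL 1_2, PP 1_2 or PP 3_4, 3 of the 6 remained (Pfkfb3 beside Slc2a1 and Eif4ebp1), and 2 without LL 3_4.

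LBL vs PBP also called Rptor (217 and 212 CPM in LBL against 172 and 152 CPM in PBP; 1.32-fold), Gpi1 (94.7 and 123 CPM in LBL against 81.7 and 70.1 CPM in PBP; 1.44-fold, adjusted p = 0.0123), Ddit4 (167 and 154 CPM in LBL against 110 and 134 CPM in PBP; 1.33-fold, adjusted p = 0.025) and Ldha (80.5 and 89.8 CPM in LBL against 65.9 and 56.4 CPM in PBP; 1.39-fold, adjusted p = 0.0494). Ddit4 encodes a stress-induced inhibitor of mTOR signalling. With the LBL pair averaged as 1 library 2 loci were left (Slc2a1 and Eif4ebp1). Without LBL 3_4 there were 2 as well, and 3 without LBL 1_2, PBP 1_2 or PBP 3_4.

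Set directly against a first LPS, a second one gave no called locus in this set: 0 of 37 in LL vs PL (0.0437% of all loci) and 0 of 37 in LBL vs PBL (1.21% of all loci). DESeq2 called 0 in both. At an unadjusted p under 0.05 there were 1 (Rptor) and 4 (Ddit4, Arnt, Ldhb and Hk3, all higher in LBL). These were 2.7% and 10.8% of the 37 loci, against 6.95% and 11.6% of all loci. Ddit4 came closest, with 167 and 154 CPM in LBL against 118, 136 and 131 CPM in PBL (log2 fold change 0.31 ± 0.10, adjusted p = 0.116). For Slc2a1 the log2 fold change was -0.03 with a 95% interval of -0.225 to 0.157 in LL vs PL, and 0.000662 with an interval of -0.172 to 0.173 in LBL vs PBL. The intervals of Eif4ebp1 were -0.163 to 0.267 and -0.23 to 0.17.

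Over single peaks, 0 of 121 were called in LL vs PL (0.064% of all peaks) and 2 in LBL vs PBL (1.9% of all peaks). In LL vs PL 6 peaks had an unadjusted p under 0.05, DESeq2 called 0, and 1 peak of Pdk1 was called without PL 1_2. The intronic Hk2 peak held 17.5 and 13.2 CPM in LBL against 29.5, 25.0 and 25.7 CPM in PBL (1.74-fold lower, adjusted p = 0.0479), with no overlap. A weak peak 5460 bp before Pdk1, a kinase of pyruvate dehydrogenase, held 10.4 and 10.2 CPM in LBL against 7.02, 1.85 and 3.67 CPM in PBL (2.67-fold higher, adjusted p = 0.0185). With the LBL pair averaged as 1 library neither was called; DESeq2 did not call the Hk2 peak and gave the Pdk1 peak no adjusted p. The Hk2 call was lost without any 1 of the 5 pools, and the Pdk1 call without any but PBL 1_2. In LL vs PL the Hk2 peak held 12.5 and 19.7 CPM in LL against 17.8 and 27.7 CPM in PL, which overlap.

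Repopulation without LPS left these loci without a call: PBP vs PP gave 0 of 37 loci (0.116% of all loci) and 0 of 121 peaks (0.16% of all peaks). At an unadjusted p under 0.05 there were 3 loci (8.11%, against 12.3% of all loci) and 18 peaks. The share of all peaks at this unadjusted level was not counted in any comparison, so none of these peak counts can be set against it. Comparisons whose count is not given elsewhere had 31 (PL vs PP), 36 (PBL vs PBP), 14 (LBL vs PBL) and 5 peaks (LBL vs LL). Of the 3 loci, Rptor was lower in PBP, and Deptor, an mTOR inhibitor, and Mtor were higher. DESeq2 called 0 loci and 0 peaks. With the isolation day as a term, which PL alone spans, Mtor was called, as 1 locus and 1 peak. That term adds the gap between the PL pools, 70.5 and 102 CPM at the Mtor locus, to PBP vs PP. Slc2a1 held 124 and 143 CPM in PBP against 120 and 135 CPM in PP, which overlap (log2 fold change 0.06, 95% interval -0.195 to 0.322).

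Repopulated and original microglia were next compared under LPS. PBL vs PL gave 0 of 37 loci (0.342% of all loci) and 0 of 121 peaks (0.0826% of all peaks), and DESeq2 called 0 loci and 0 peaks. At an unadjusted p under 0.05 there were 5 loci (13.5%, against 11.8% of all loci) and 11 peaks. Pkm led these loci (log2 fold change 0.43, adjusted p = 0.12). Without PL 1_2, when PL was PL 3_4 alone, 4 loci (Egln3, Hk2, Ldhb and Pkm) and 1 peak were called. LBL vs LL gave 0 of 37 loci (0.0947% of all loci), with 0 at an unadjusted p under 0.05 (7.62% of all loci) and 0 by DESeq2. It gave 1 of 121 peaks (0.0506% of all peaks): the intergenic peak downstream of Pfkfb3, 39752 bp from its nearest start, held 29.9 and 23.4 CPM in LBL against 51.9 and 46.7 CPM in LL (1.87-fold lower, adjusted p = 0.0286). The call was lost by DESeq2, with the LBL pair averaged and without any 1 of the 4 pools.

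The difference between the first-LPS responses of repopulated and original microglia was also tested itself. It was called at 0 of 37 loci (0.124% of all loci) and 0 of 121 peaks (0.0746% of all peaks). At an unadjusted p under 0.05 there were 10 loci (27%, against 14.1% of all loci) and 17 peaks. The smallest adjusted p of a locus was 0.152, at Ldhb, and DESeq2 called 0 loci and 0 peaks. Without PL 1_2, 3 loci (Ldhb, Mtor and Rheb) and 2 peaks were called. The difference between the second-against-first steps of the 2 arms was called at 0 loci (0% of all loci) and 0 peaks (0% of all peaks). DESeq2 called 0 of either. Its unadjusted p was under 0.05 at 3 of the 37 loci (8.11%, against 5.79% of all loci) and at 6 peaks. For Slc2a1 the difference between the first-LPS responses was 0.05 with a 95% interval of -0.259 to 0.365.

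Other genes of the same pathways were counted as a frame. Of 28 tested loci of further glycolytic and pyruvate genes, 1 was higher (Bpgm, 1.43-fold, adjusted p = 0.0285) and 0 were lower in PL vs PP, and 0 were higher in PBL vs PBP. As printed above, 6.54% of all loci were higher and 4.07% lower in PL vs PP, and 5.15% and 2.32% in PBL vs PBP. Of 28 further HIF-pathway loci, 2 were higher and 2 lower in each comparison. Hif3a, an alpha subunit that can restrain the others, rose in both: 146 and 137 CPM in PL against 91.7 and 73.6 CPM in PP (1.72-fold, adjusted p = 0.000102), and 1.39-fold in PBL vs PBP. Bhlhe40, a hypoxia-induced repressor, was 1.98-fold higher in PBL vs PBP, and its relative Bhlhe41 fell in both (1.30- and 1.28-fold lower).

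Of 45 further mTOR-pathway loci, 3 were higher and 2 lower in PL vs PP (6.54% and 4.07% of all loci). In PBL vs PBP 3 were higher and 0 lower (5.15% and 2.32% of all loci). The counts of the 3 lists, 0 to 3 loci each way, were not tested against the shares of all loci. Prr5l, a partner of the Rictor complex, changed most, with 422 and 569 CPM in PL against 237 and 248 CPM in PP (2.04-fold, adjusted p = 1.75e-10) and 1.62-fold in PBL vs PBP. Pik3cb, a catalytic subunit of the kinase upstream of Akt, was 1.46- and 1.34-fold higher. No further pathway locus was called in LL vs PL, LBL vs PBL, PBP vs PP, PBL vs PL or LBL vs LL. LL vs PP called 1, 4 and 3 glycolytic, HIF and mTOR loci higher and 0 lower (5.81% and 2.92% of all loci).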

How the data were processed

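Peaks and counts were made by the authors: the deposited table gives, for each of 38620 peaks and 13 libraries, an estimated count in steps of 0.5 (49.1% to 50.1% of the values of a library end in 0.5), unscaled. Its columns also give, per the file headers, the other values used here: the distance in bp to the nearest start site, the gene and the annotation of each peak. A second deposited table gives the sorter and isolation day of each library, per the file headers. Per the submitters' processing notes, the tools were ChIPseeker 1.38, HOMER 4.9.1, MACS2 2.1.1, Picard 1.126, deepTools 3.3.0, bedtools 2.26, SAMtools 1.7, Bowtie2 2.2.6 and cutadapt 1.9.1, on the builds mm10 and GRCm38; the counting tool and any shift of reads to the insertion site are not given in the sources used here.

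Estimated counts were summed per gene over peaks within 50000 bp of a start site and rounded to whole numbers, and peaks were rounded singly. One peak without a gene name entered no sum. Features were kept by edgeR's filterByExpr with a minimum count of 10, which removed 1104 peaks, and scaled by TMM. All 13 libraries entered 1 fit of edgeR 4.0.16 (limma 3.58.1, R 4.3.3) with 6 group means, using the robust quasi-likelihood test, and p-values were adjusted by Benjamini-Hochberg over all features. CPM use the TMM-scaled library size, so levels of loci and of peaks are on slightly different scales, and neither is per length. SE is the log2 fold change over the root of its F, and 95% intervals are the estimate ± 1.96 SE. The scripts were tested on simulated counts. The members, gene lists and tests were chosen with earlier results of these data known. Values were given for each called locus with its called peaks, and for called peaks of other loci; from the further pathway lists up to 4 called genes per comparison could be named. Alternatives were DESeq2 1.42.0 (with its own size factors), RLE factors in edgeR, no filter, narrower windows, the isolation day and the replicate number as terms, and leaving out each library. Added after the data were seen were rounding up, the LBL pair averaged, and the tests of response differences at peaks. The replicate numbers were not used to pair the libraries in the main fit. One result among the further pathway genes is not reported here.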

Additional observations from a re-analysis of the deposited data

Results flagged for a closer look

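Peaks more than 50000 bp from a start site entered none of the comparisons above. There were 7 of them, tested in the same comparisons as the other peaks, and 3 results among them passed the test. All 3 were higher, in PL vs PP (4.77% of all peaks were higher) or in PBL vs PBP (6.74%). A peak 121127 bp upstream of Hif1a, at chr12:73779239-73780248, held 92.5 and 104 CPM in PL against 52.6 and 67.9 CPM in PP, and 73.0, 98.1 and 88.7 CPM in PBL against 58.6 and 58.8 CPM in PBP. The LPS pools did not overlap the PBS pools. Its log2 fold change was 0.71 ± 0.17 in PL vs PP (1.63-fold, adjusted p = 0.00195) and 0.58 ± 0.14 in PBL vs PBP (1.50-fold, adjusted p = 0.00146), in edgeR's test over all peaks. LL held 83.8 and 86.9 CPM and LBL 94.9 and 91.4 CPM there. The table assigns the peak to Hif1a because it is the nearest start site, and whether it acts on Hif1a was not tested. A peak 56959 bp upstream of Pdk3, at chrX:93889160-93890042, held 34.4 and 42.6 CPM in PL against 24.2 and 20.0 CPM in PP (log2 fold change 0.81 ± 0.26, 1.75-fold, adjusted p = 0.0336). PBP held 33.0 and 40.7 CPM at the same peak, so PP was the low group.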

How the results depend on the processing

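The alternatives covered 24 locus results of the named genes and 30 results of their peaks within 50000 bp. None of these changed its direction under any alternative. Results for peaks beyond 50000 bp, further pathway genes and marker genes were not among them, so how those depend on the processing was not tested. Of 24 named locus results, the 4 of Eif4ebp1 kept their call in every alternative run, and of 30 named peak results 8 did: Eif4ebp1 (in 2 comparisons), the intronic Slc2a1 peak (2), the exonic Pfkfb3 peak (2), the intronic Hk2 peak in PBL vs PBP and the intronic Ldhb peak. Over the loci 94 of 282 alternatives lost the call, and over the peaks 88 of 300. DESeq2 called 3 of these loci in LL vs PP, 2 in LBL vs PBP, and 5 peaks in PL vs PP, 5 in PBL vs PBP, 0 in LBL vs PBL and 0 in LBL vs LL. With the isolation day as a term there were 11 loci and 22 peaks in PL vs PP, and 1 locus and 1 peak in PBP vs PP. That term is the gap between the 2 PL pools, which enters both comparisons and leaves PL 3_4 alone against PP. With peaks within 10000 bp there were 3 loci in PL vs PP, 3 in PBL vs PBP, 1 in LL vs PP and 2 in LBL vs PBP, and with peaks within 1000 bp 4, 2, 2 and 1; fewer peaks enter these sums. With the LBL libraries averaged as 1 there were 2 loci in LBL vs PBP, and 0 peaks in LBL vs PBL and in LBL vs LL.

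Leaving out 1 library at a time, with a lone library assumed to vary like the others, gave 2 to 11 loci in PL vs PP, 2 to 5 in PBL vs PBP, 2 to 3 in LL vs PP, 2 to 3 in LBL vs PBP, 0 to 4 in PBL vs PL, 0 to 3 for the first-LPS response difference, and 0 to 0 for the other comparisons of loci. For peaks it gave 3 to 22 in PL vs PP, 6 to 16 in PBL vs PBP, 0 to 1 in LL vs PL, in LBL vs PBL and in PBL vs PL, 0 to 0 in LBL vs LL and PBP vs PP, and 0 to 2 and 0 to 0 for the response differences.

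With the replicate block there were 8 loci in PL vs PP, 5 in PBL vs PBP, 6 in LL vs PP and 6 in LBL vs PBP, and 15 and 16 peaks in PL vs PP and PBL vs PBP. The deviations of same-numbered libraries correlated between -0.0207 and 0.21 over 15 pairs of groups, with 2 over 0.1. The main fit did not use the numbers as pairs, and these correlations cannot show what the numbers stand for. PP had the fewest counts, which limits the weak peaks most, and with 2 or 3 pools a group the causes of lost calls were not tested.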
